A study of Bos indicus x Bos taurus with 20 samples.

Results

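Genomic imprinting is the expression of a gene from only the maternal or only the paternal allele, set by DNA methylation laid down in the egg or the sperm and kept through cleavage. Many imprinted genes act on growth of the fetus and the placenta, with paternally expressed genes such as IGF2 tending to promote growth and maternally expressed genes such as IGF2R, PHLDA2 and CDKN1C tending to restrain it. In cattle these genes are of interest because disturbed imprinting has been found in calves and fetuses from embryo culture and nuclear transfer. Levels of 10 such genes were followed in bovine cleavage embryos: the maternally expressed PHLDA2, CDKN1C, IGF2R and GRB10, and the paternally expressed IGF2, PLAGL1, MEST, PEG10, PEG3 and NNAT. The parent of origin is given here as known from the mouse or human, where GRB10 is expressed from the paternal allele in neurons. The members were taken by symbol from the count table of the 2-cell and 8-cell stages. All 10 are among its 30675 named genes, and 9 were among the 16149 genes that passed the filter on low counts. IGF2 did not pass it.

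The study injected bovine zygotes (Bos indicus x Bos taurus, labelled genotype WT) with vehicle or with METTL7A mRNA transcribed in vitro, and asked how METTL7A, a methyltransferase of thiol compounds, affects embryo development. The groups used here were METTL7A-injected 8-cell embryos, vehicle-injected (Control) 8-cell embryos, METTL7A-injected 2-cell embryos and Control 2-cell embryos, with 2 libraries each. Embryos went into SMART-Seq v4 cDNA synthesis with no RNA extraction, and the labels do not say how many embryos made a library or whether replicates came from separate pools. The other 12 of the 20 libraries, from the inner cell mass and trophectoderm, were not used here. All groups underwent zygotic injection. No group received another mRNA, so effects of METTL7A and of injecting an mRNA cannot be told apart.

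Levels are given as CPM, the read count scaled by the TMM-adjusted library size, with means ± SD over 2 libraries. They are not divided by transcript length, so levels are compared between groups and not between genes. In such bulk libraries, fewer cells that express a gene and less RNA per cell cannot be told apart. The counts do not separate parental alleles, so they give total expression and say nothing of imprinting itself. The protocol does not mark strand, and reads of a gene and an antisense partner such as AIRN at IGF2R cannot be told apart. AIRN itself had 0 to 4 counts per library.

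Gene counts totalled 15781017 to 20737404 per library. The injected transcript was at 18733 and 38083 CPM in METTL7A-injected 8-cell libraries against 7.35 and 7.57 CPM in Control, and at 47679 and 42801 CPM in METTL7A-injected 2-cell libraries against 19.05 and 14.2 CPM in Control. KLF17, a transcript of embryonic genome activation, had means of 2729 and 1072 CPM in METTL7A-injected and Control 8-cell embryos, and its 4 values in the 2-cell libraries were all under 2 CPM. All 10 oocyte transcripts listed were above 1 CPM in every library. They summed to 36993 and 34814 CPM in METTL7A 8-cell libraries and to 13031 and 23593 CPM in Control 8-cell replicates 1 and 2. In 2-cell libraries they summed to 18017 to 22583 CPM. By edgeR, 2 of the 10 rose and 4 fell between the stages in METTL7A-injected embryos. In Control embryos 2 rose and 7 fell, where 40.2% and 52.7% of all genes tested passed in METTL7A-injected and Control embryos. BTG4 alone gave 28033 and 27136 CPM in METTL7A 8-cell, 10061 and 15959 CPM in Control 8-cell and 5145 to 9204 CPM in 2-cell libraries. The 5 genome activation transcripts found, KLF17 included, summed to 9128.5 and 12232 CPM, to 2481 and 6762 CPM and to 96.1 to 109 CPM in the same libraries. The Control 8-cell pair stood apart in its spread (chi-square per degree of freedom between replicates 234.6, against 40.3, 32.1 and 2.17 in the METTL7A 8-cell, METTL7A 2-cell and Control 2-cell pairs). The 20 markers of cumulus, granulosa and other somatic cells summed to 288 and 280 CPM in METTL7A 8-cell libraries, to 6365 and 1284 CPM in Control 8-cell replicates 1 and 2, and to 531 to 601 CPM in the 2-cell libraries. The 10 hypoblast markers summed to 66.0 and 58.1 CPM, to 4046 and 532 CPM and to 21.4 to 38.7 CPM in the same libraries, with HNF4A at 0 counts throughout and SOX17 at 0 in both Control 8-cell libraries. SPARC (2142 and 298 CPM) and APOA1 (1464 and 129 CPM) held most of the sums in Control 8-cell replicates 1 and 2. The 11 trophectoderm markers found summed to 200 and 312 CPM in METTL7A 8-cell, 559 and 198 CPM in Control 8-cell and 65.1 to 92.7 CPM in 2-cell libraries, with PAG2 at 0 throughout. KRT8 alone gave 475.65 and 33.4 CPM of the sums in Control 8-cell replicates 1 and 2. KRT18 was also higher in replicate 1 (29.2 against 3.28 CPM). The others found, PAG2 aside, were lower in replicate 1, such as TFAP2C (36.4 against 117 CPM). Results that rest on Control 8-cell replicate 1 are given with and without it.

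**Figure D1:**
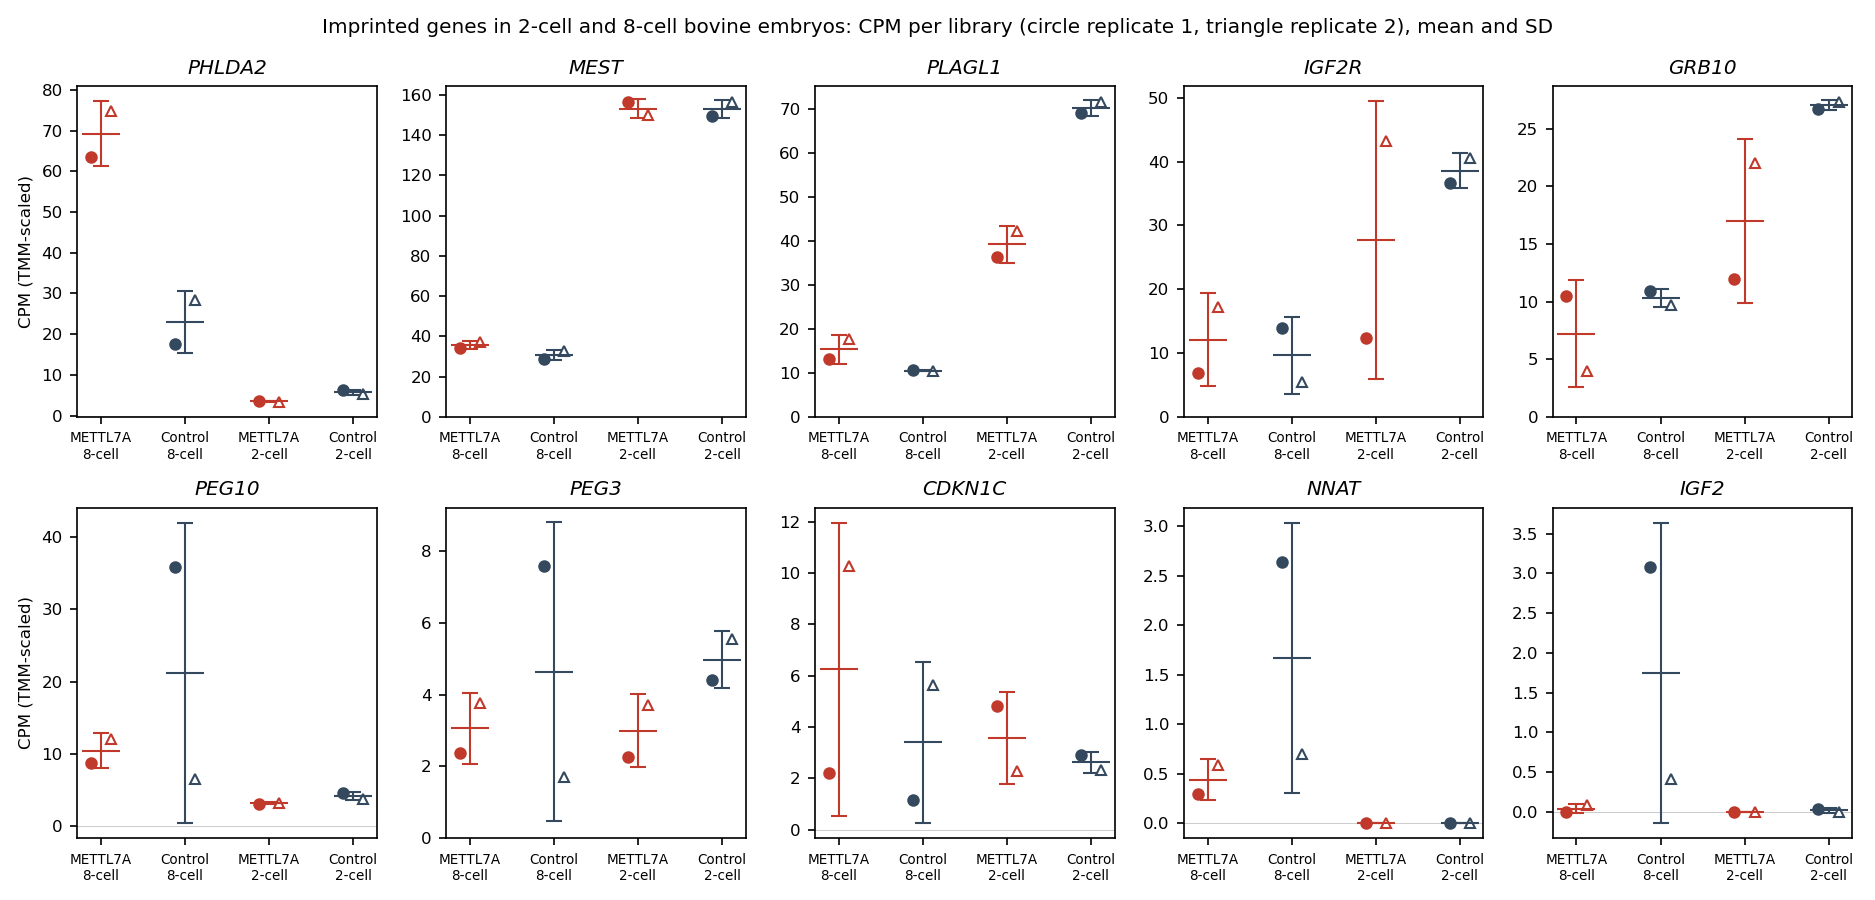
CPM of the 10 imprinted genes in each library of METTL7A-injected and Control 8-cell and 2-cell embryos (2 libraries per group; horizontal mark, mean; bars, SD). PHLDA2 is highest in METTL7A 8-cell libraries (63.5 and 74.9 CPM), MEST, PLAGL1 and GRB10 are lower in the 8-cell than in the 2-cell groups, and PEG10, PEG3, NNAT and IGF2 are highest in replicate 1 of the Control 8-cell group.

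PHLDA2, which encodes a pleckstrin-homology protein that restrains placental growth in the mouse, rose between the stages in both treatments and was the only one of the 9 genes that passed the test between treatments. At the 8-cell stage it stood at 63.5 and 74.9 CPM in METTL7A-injected libraries and at 17.7 and 28.3 CPM in Control libraries, from 861 and 895 counts against 315 and 483. At the 2-cell stage it stood at 3.52 and 3.41 CPM in METTL7A-injected libraries and at 6.18 and 5.32 CPM in Control libraries. No group overlapped another, and the order ran from METTL7A 8-cell through Control 8-cell and Control 2-cell to METTL7A 2-cell.

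From these values, PHLDA2 rose with a log2 fold change of 4.32 from the 2-cell to the 8-cell stage in METTL7A-injected embryos (95% interval 3.42 to 5.22; edgeR quasi-likelihood test, adjusted p = 9.13e-05) and of 2.00 in Control embryos (1.18 to 2.82; adjusted p = 0.00189). Both calls held in all 16 alternative settings. At the 8-cell stage it averaged 69.2 ± 8.03 CPM in METTL7A-injected embryos and 23.0 ± 7.53 CPM in Control embryos, a log2 fold change of 1.59 (0.79 to 2.39; adjusted p = 0.042). Among the 9 genes this made 1 higher and 0 lower, beside 5.29% of all genes tested (0.737% higher and 4.55% lower). The 2-cell means were 3.47 ± 0.0842 and 5.75 ± 0.612 CPM, with a log2 fold change of -0.73 (-1.54 to 0.08; adjusted p = 0.722). At the 8-cell stage the median log2 fold change of METTL7A-injected over Control embryos was 0.144 over all genes tested. It was 0.576 over the 10 oocyte transcripts and 1.2 over the 5 genome activation transcripts, of which 0 passed by edgeR. How far PHLDA2 shares in this was not tested.

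The 8-cell call of PHLDA2 lay close to the threshold. It kept its sign in all 16 alternatives, with log2 fold changes of 1.28 to 1.99, and passed in 6 of them. Leaving out 1 library ended the call for 7 of the 8 libraries, with adjusted p-values of 0.0598 without Control 8-cell replicate 1, 0.172 and 0.308 without METTL7A 8-cell replicates 1 and 2, and 0.0866 to 0.0981 without any of the 2-cell libraries. It was 0.00143 without Control 8-cell replicate 2 and 0.000437 with DESeq2. Between the stages the treatment effect differed by 2.32 on the log2 scale (1.18 to 3.46; adjusted p = 0.171), which did not pass the test. It passed with DESeq2 (2.27, adjusted p = 0.00145) and without Control 8-cell replicate 2 (2.73, adjusted p = 0.00231).

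**Figure D2:**
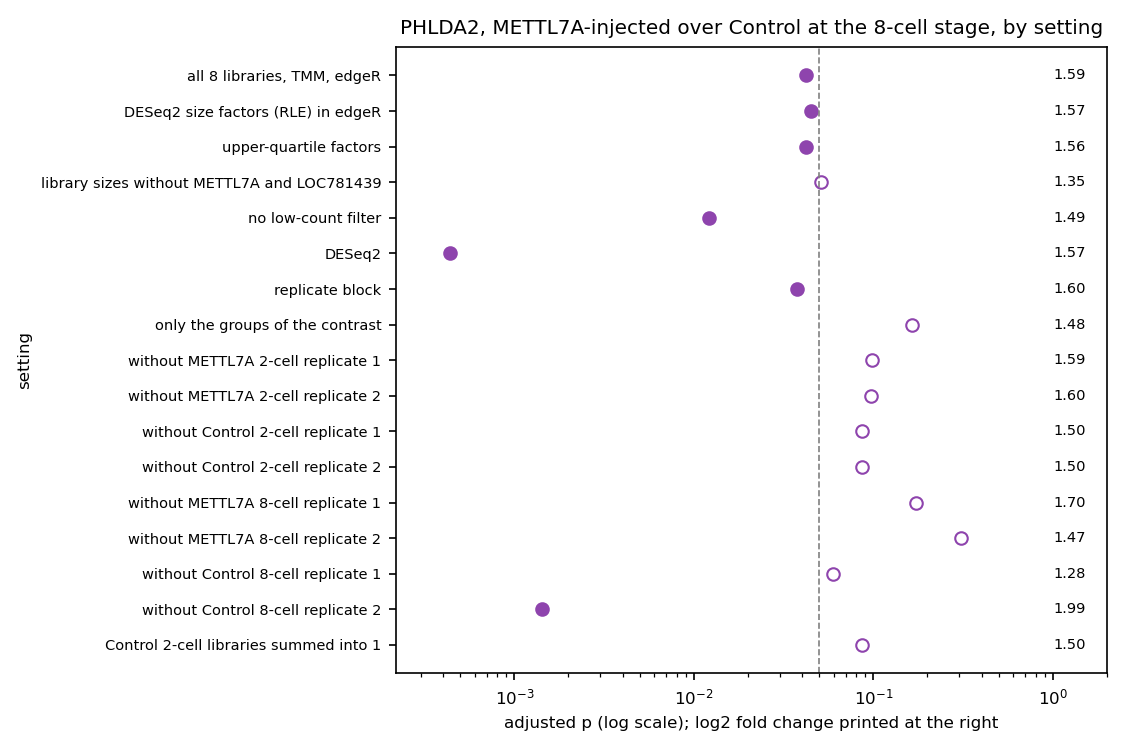
Adjusted p (log scale) of PHLDA2 in METTL7A-injected over Control 8-cell embryos under each setting, with the log2 fold change at the right and the threshold of 0.05 dashed. Filled points pass. The fold change stays between 1.28 and 1.99 while the adjusted p runs from 0.000437 to 0.308.

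CDKN1C, a cyclin-dependent kinase inhibitor that has 1 protein-coding gene between it and PHLDA2 in the RefSeq gene order, passed no test. Its level was 2.21 and 10.3 CPM in METTL7A 8-cell libraries, 1.18 and 5.63 CPM in Control 8-cell libraries, 4.83 and 2.30 CPM in METTL7A 2-cell libraries and 2.93 and 2.33 CPM in Control 2-cell libraries. Replicates at the 8-cell stage differed by more than the groups did, and all neighbouring groups in the order of means overlapped. The log2 fold change between stages was 0.81 (-1.16 to 2.78; adjusted p = 0.489) in METTL7A-injected embryos and 0.37 (-1.60 to 2.34; adjusted p = 0.744) in Control embryos. Between treatments it was 0.87 (-1.10 to 2.85; adjusted p = 0.545) at the 8-cell stage and 0.43 (-1.53 to 2.40; adjusted p = 0.985) at the 2-cell stage. These intervals are wide enough to hold a change as large as that of PHLDA2 at the 8-cell stage. SLC22A18, which lies between them, had 0 counts in every library. NAP1L4, a nucleosome assembly protein on the other side of PHLDA2, stood at means of 44.5 and 49.9 CPM in METTL7A and Control 8-cell embryos and 63.8 and 78.0 CPM in METTL7A and Control 2-cell embryos, and passed no test (adjusted p = 0.078 to 0.912).

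IGF2R, the receptor that takes IGF2 to lysosomes for breakdown, fell between the stages in Control embryos. It had 6.94 and 17.2 CPM in METTL7A 8-cell libraries and 13.9 and 5.40 CPM in Control 8-cell libraries. In 2-cell embryos it had 12.3 and 43.2 CPM in METTL7A-injected libraries and 36.6 and 40.5 CPM in Control libraries. METTL7A 2-cell replicate 1 was the low one of the 2-cell libraries and lay within the range of the 8-cell libraries. In Control embryos the log2 fold change was -2.00 (-3.57 to -0.44; adjusted p = 0.0361), with 10 of 16 alternatives past the threshold. Leaving out Control 2-cell replicate 1, Control 2-cell replicate 2 or Control 8-cell replicate 2 ended the call (adjusted p = 0.0737, 0.0907 and 0.0973). In METTL7A-injected embryos the value was -1.20 (-2.74 to 0.34; adjusted p = 0.19), and it was -0.04 without METTL7A 2-cell replicate 2 and -2.05 without METTL7A 8-cell replicate 2. The treatment effect was 0.33 (-1.20 to 1.86; adjusted p = 0.782) at the 8-cell stage and -0.47 (-1.98 to 1.03; adjusted p = 0.958) at the 2-cell stage.

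GRB10, an adaptor that dampens signalling of the insulin and IGF1 receptors, stood lower in the 8-cell groups as well. It had 10.5 and 3.93 CPM in METTL7A 8-cell libraries and 10.9 and 9.74 CPM in Control 8-cell libraries, against 11.9 and 22.0 CPM in METTL7A 2-cell libraries and 26.7 and 27.3 CPM in Control 2-cell libraries. The Control pairs were tight and the METTL7A pairs were not, with METTL7A 2-cell replicate 1 again the low one. GRB10 fell by 1.39 on the log2 scale in Control embryos (interval -2.54 to -0.24; adjusted p = 0.0449), and 8 of 16 alternatives kept the call. Leaving out any library but METTL7A 8-cell replicates 1 and 2 ended it (adjusted p = 0.0542 to 0.147). In METTL7A-injected embryos the value was -1.23 (-2.39 to -0.07; adjusted p = 0.0843), and it passed without Control 8-cell replicate 1 or 2 (-1.25 in both, adjusted p = 0.0414 and 0.0445) and without METTL7A 8-cell replicate 1 (-2.16, adjusted p = 0.0309). The treatment effect was -0.51 (-1.67 to 0.64; adjusted p = 0.543) at the 8-cell stage and -0.67 (-1.80 to 0.46; adjusted p = 0.879) at the 2-cell stage.

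Among the paternally expressed genes, MEST fell by similar amounts in both treatments. MEST encodes a protein of the alpha/beta hydrolase fold and is expressed from the paternal allele in the embryo. It had 34.4 and 37.2 CPM in METTL7A 8-cell libraries and 28.8 and 32.7 CPM in Control 8-cell libraries. In 2-cell embryos it had 156.6 and 149.98 CPM in METTL7A-injected libraries and 149.8 and 156.3 CPM in Control libraries. Replicates lay within 10 CPM of each other in every group, the stages were far apart, and the 2-cell treatments overlapped. The log2 fold change between stages was -2.10 (-2.69 to -1.51; adjusted p = 0.000367) in METTL7A-injected embryos and -2.32 (-2.91 to -1.72; adjusted p = 0.000241) in Control embryos, and both passed in all 16 alternatives. Between treatments MEST differed by 0.22 (-0.36 to 0.79; adjusted p = 0.607) at the 8-cell stage and by 0.00 (-0.57 to 0.57) at the 2-cell stage. These are the narrowest intervals of the members with counts in every group, and they leave out changes beyond 0.79 on the log2 scale in either direction. The 8-cell value of 0.22 is near the median of 0.144 over all genes tested, and it turned to -0.02 with library sizes that leave out the injected transcript.

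PLAGL1, a zinc finger transcription factor that in the mouse regulates other imprinted genes, fell in both treatments. The 8-cell values were 13.1 and 17.7 CPM in METTL7A-injected libraries and 10.5 and 10.5 CPM in Control libraries. The 2-cell values were 36.2 and 42.2 CPM in METTL7A-injected libraries and 68.9 and 71.6 CPM in Control libraries. No group overlapped another: METTL7A-injected embryos were above Control at the 8-cell stage and below it at the 2-cell stage. The log2 fold change between stages was -1.35 (-2.05 to -0.65; adjusted p = 0.00774) in METTL7A-injected and -2.74 (-3.47 to -2.01; adjusted p = 0.000274) in Control embryos. The first passed in 15 of 16 alternatives and was lost without METTL7A 2-cell replicate 2 (adjusted p = 0.059), and the other passed in all 16. The treatment effect was 0.54 (-0.15 to 1.24; adjusted p = 0.288) at the 8-cell stage and -0.84 (-1.53 to -0.16; adjusted p = 0.596) at the 2-cell stage. The difference between these effects was 1.39 on the log2 scale (0.41 to 2.36, with unadjusted p = 0.0104 and adjusted p = 0.205 by edgeR). Over 15 alternatives it ran from 1.13 to 1.56 and passed in 1, the fit without Control 8-cell replicate 2 (1.41).

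**Figure D3:**
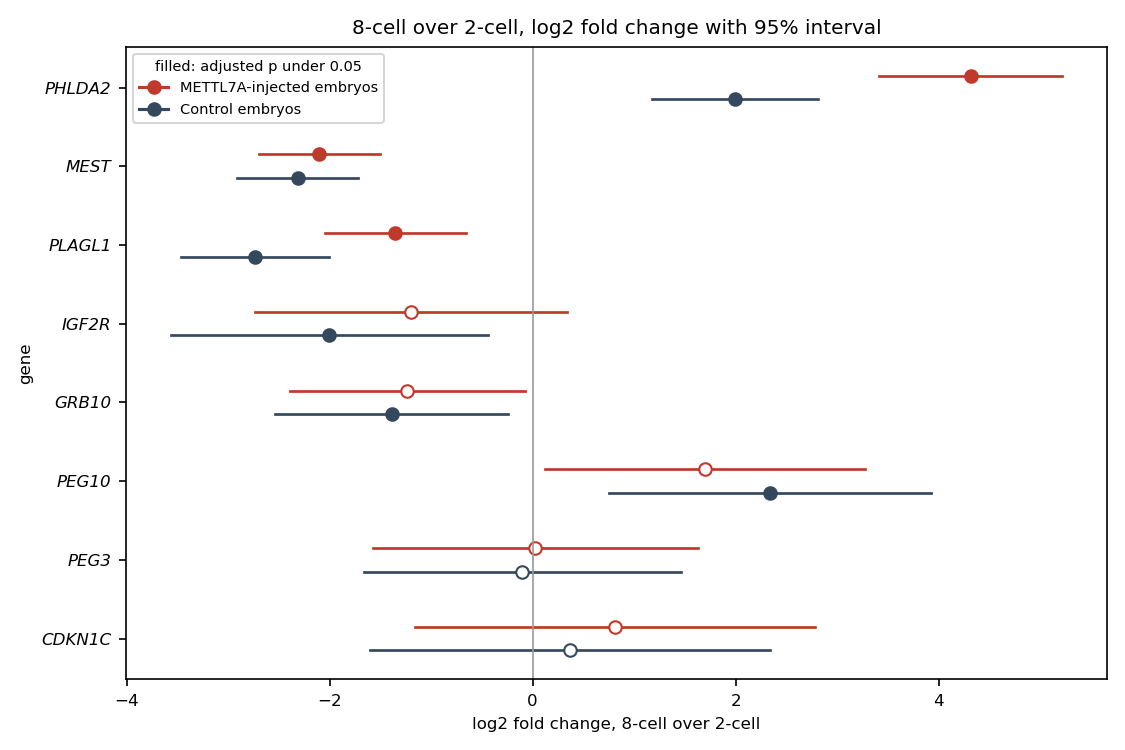
Log2 fold change of 8-cell over 2-cell embryos with 95% intervals for 8 imprinted genes, METTL7A-injected embryos above Control embryos. Filled points have an adjusted p under 0.05. PHLDA2 lies at 4.32 and 2.00, MEST at -2.10 and -2.32 and PLAGL1 at -1.35 and -2.74, while the intervals of PEG3 and CDKN1C include 0 in both treatments.

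PEG10, a gene derived from a retrotransposon and needed for placenta formation in the mouse, was higher in the 8-cell groups. It had 8.71 and 12.1 CPM in METTL7A 8-cell libraries and 35.9 and 6.51 CPM in Control 8-cell libraries, against 3.13 and 3.27 CPM in METTL7A 2-cell libraries and 4.58 and 3.80 CPM in Control 2-cell libraries. All 4 of the 8-cell libraries were above all 4 of the 2-cell libraries, and Control 8-cell replicate 1 was far above its partner. In Control embryos PEG10 rose with a log2 fold change of 2.34 (0.75 to 3.92; adjusted p = 0.0202). Without Control 8-cell replicate 1 that value was 0.62 (adjusted p = 0.213), and leaving out Control 2-cell replicate 1 or 2 also ended the call (adjusted p = 0.0834 and 0.113). In METTL7A-injected embryos the value was 1.70 (0.13 to 3.27; adjusted p = 0.0805), and it passed without Control 8-cell replicate 1 or 2 (1.68 in both, adjusted p = 0.0024 and 0.00177). The treatment effect at the 8-cell stage was -1.03 (-2.55 to 0.50; adjusted p = 0.355). It turned to 0.67 without Control 8-cell replicate 1 (adjusted p = 0.414) and was -1.76 without replicate 2 (adjusted p = 0.00408). At the 2-cell stage it was -0.39 (-1.93 to 1.16; adjusted p = 0.979).

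Both neighbours of PEG10 in the RefSeq gene order, named for their position, are themselves imprinted in some mouse tissues. SGCE, which encodes epsilon-sarcoglycan and is paternally expressed, fell at the 8-cell stage with a log2 fold change of -3.28 in METTL7A-injected against Control embryos (means 2.36 and 23.0 CPM; adjusted p = 0.0352). In Control 8-cell replicates 1 and 2 it stood at 37.7 and 8.33 CPM, with replicate 1 the higher as for PEG10, and without replicate 1 the log2 fold change was -1.82 (adjusted p = 0.0425). PPP1R9A, a neuronal actin-binding protein, passed no test (means 25.9 and 15.9 CPM at the 8-cell stage, adjusted p = 0.271).

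PEG3, a zinc finger protein linked to growth and maternal behaviour in the mouse, showed no change that passed. It had 2.36 and 3.77 CPM in METTL7A 8-cell libraries, 7.57 and 1.70 CPM in Control 8-cell libraries, 2.27 and 3.72 CPM in METTL7A 2-cell libraries and 4.41 and 5.53 CPM in Control 2-cell libraries. The widest gap was between the replicates of Control 8-cell embryos, and all neighbouring groups overlapped. The stage effect was 0.03 (-1.57 to 1.63; adjusted p = 0.984) in METTL7A-injected and -0.10 (-1.66 to 1.46; adjusted p = 0.916) in Control embryos. Without Control 8-cell replicate 1 the Control value was -1.56 (adjusted p = 0.0427). The treatment effect was -0.60 (-2.20 to 0.99; adjusted p = 0.611) at the 8-cell stage and turned to 0.84 without that library (adjusted p = 0.464). At the 2-cell stage it was -0.73 (-2.30 to 0.85; adjusted p = 0.909).

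NNAT, a small membrane proteolipid of the endoplasmic reticulum best known from neurons, was detected in the 8-cell groups alone. It had 4 and 7 counts (0.295 and 0.586 CPM) in METTL7A 8-cell libraries, 47 and 12 counts (2.64 and 0.704 CPM) in Control 8-cell libraries and 0 counts in all 4 of the 2-cell libraries. A count of 0 allows up to 0.124 to 0.171 CPM in the 2-cell libraries, taking 3 counts as the limit. Over the groups NNAT was at least 5.78-fold higher at the 8-cell than at the 2-cell stage in METTL7A-injected embryos and at least 26.7-fold higher in Control embryos, or 11.1-fold from Control replicate 2 alone. Here 3 counts over the 2-cell group are the floor. These bounds cover counting error only. NNAT passed the low-count filter only through the 8-cell libraries, where it was high, so its stage calls (adjusted p = 0.0344 in METTL7A-injected and 0.00588 in Control embryos) are not independent of that filter. At the 8-cell stage METTL7A-injected libraries were below Control libraries with no overlap, though the nearest values were 7 and 12 counts. The log2 fold change of -1.92 (-4.35 to 0.52) did not pass the test (adjusted p = 0.28). It ran from -2.55 to -0.68 with 1 library left out, and Control replicate 1 held most of the Control counts. In the mouse and human NNAT lies in an intron of BLCAP, and BLCAP neighbours it in the RefSeq order. BLCAP, a small membrane protein, fell between stages, with log2 fold changes of -1.72 in METTL7A-injected (adjusted p = 0.00257) and -2.10 in Control embryos (adjusted p = 0.000778).

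IGF2, the growth factor whose level the receptor IGF2R limits, was close to absent apart from Control 8-cell embryos. It had 0 and 1 counts in METTL7A 8-cell libraries, 55 and 7 counts (3.09 and 0.411 CPM) in Control 8-cell libraries, 0 counts in both METTL7A 2-cell libraries and 1 and 0 counts in Control 2-cell libraries. Replicate 1 held most of the Control 8-cell counts. Summed over libraries, the Control 8-cell level was 45.3 times that of METTL7A 8-cell embryos (exact 95% counting interval 7.84 to 1820), and 10.5 times (1.34 to 472) from Control replicate 2 alone. Against Control 2-cell embryos it was 84.2 times higher (14.6 to 3380), and 19.5 times (2.50 to 877) from replicate 2 alone. These intervals cover counting error and not the spread between libraries. Without the low-count filter, edgeR called IGF2 between treatments at the 8-cell stage. That fit used Control 8-cell replicate 1, which held 55 of the 62 Control counts, and no fit without the filter left that library out. INS, which neighbours IGF2, had 0 counts in every library.

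The genes with their highest level in Control 8-cell replicate 1 were PEG10, PEG3, NNAT and IGF2, and this is the library with 6365 CPM of the 20 somatic markers against 1284 CPM in its partner. LUM, the matrix proteoglycan lumican, averaged 1.38 CPM in METTL7A 8-cell embryos and stood at 4779 and 667 CPM in Control 8-cell replicates 1 and 2. CYP11A1, the cholesterol side-chain cleavage enzyme of steroidogenic cells, stood at 0.0738 and 0 CPM in METTL7A 8-cell replicates 1 and 2 and at 463 and 49.5 CPM in Control 8-cell replicates 1 and 2. Other somatic markers did not follow them: STAR, which carries cholesterol into mitochondria, stood at 38.0 and 37.9 CPM in METTL7A 8-cell libraries and at 33.2 and 34.8 CPM in Control 8-cell libraries, and the log2 fold change was positive for 5 of the 20 (STAR, FBN1, HAS2, CYP19A1 and PTGS2, named after their values were seen). No somatic marker was at 0 in either Control 8-cell library, while 1 and 2 of the 20 were at 0 in METTL7A 8-cell libraries and 4 to 7 in 2-cell libraries. In the test of METTL7A against Control 8-cell embryos, 6 of 20 somatic, 4 of 8 hypoblast and 1 of 9 trophectoderm markers were lower and 0 were higher, where 4.55% of all genes were lower. DESeq2 called 10, 7 and 1 lower and 0 higher, and without Control 8-cell replicate 1 the lower ones were 5, 2 and 0. Some of these markers, such as CYP11A1, COL3A1 and APOA1, had at most 5 counts in any library outside Control 8-cell embryos. They passed the low-count filter only through that group, where they were high, so these marker counts are not independent of that filter. The part of the markers in the values of these 4 imprinted genes was not tested. PHLDA2 was lower in Control 8-cell replicate 1 (17.7 CPM) than in its partner (28.3 CPM). So were the sums of the oocyte (13031 against 23593 CPM) and genome activation transcripts (2481 against 6762 CPM), though EIF1AX of the latter was higher (471 against 391 CPM). Without that library the stage effects of MEST and PLAGL1 in Control embryos were -2.25 and -2.76 on the log2 scale. A part of the somatic markers in the values of PHLDA2, MEST and PLAGL1 was not tested either.

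**Figure D4:**
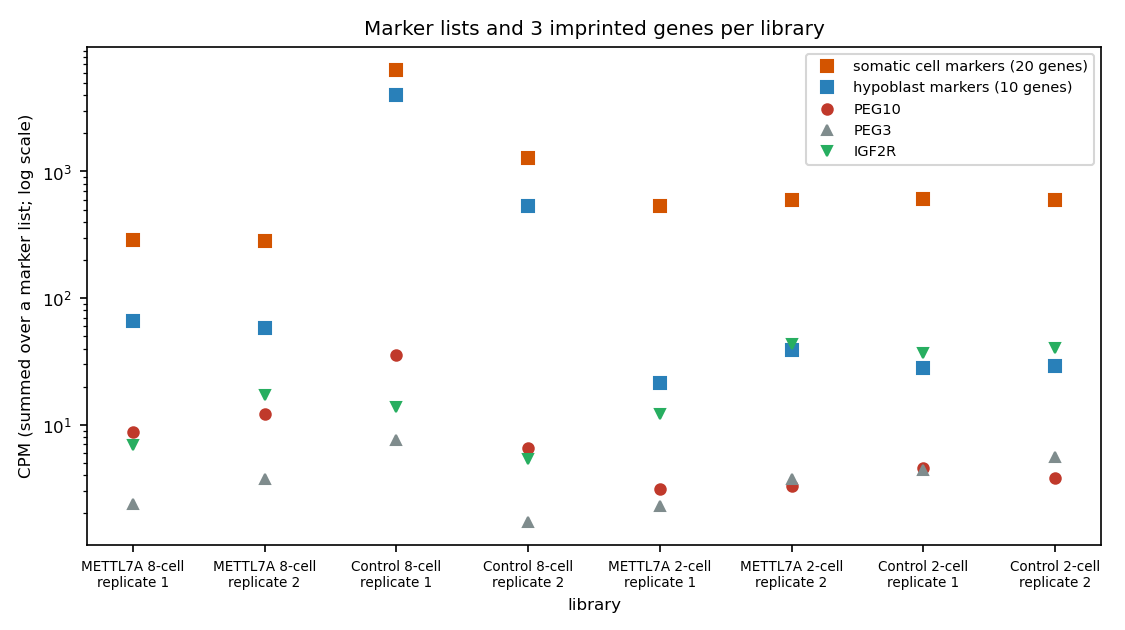
Summed CPM of 20 somatic cell markers and 10 hypoblast markers and CPM of PEG10, PEG3 and IGF2R in each of the 8 libraries (log scale). Control 8-cell replicate 1 has the highest marker sums (6365 and 4046 CPM) and the highest PEG10 (35.9 CPM), and METTL7A 2-cell replicate 1 has the lowest IGF2R of the 2-cell libraries (12.3 CPM).

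Counted over the 9 genes tested, 2 rose, 2 fell and 5 did not pass between the stages in METTL7A-injected embryos, where 40.2% of all genes tested passed (23.1% higher and 17.1% lower). In Control embryos 3 rose, 4 fell and 2 did not pass, beside 52.7% of all genes (29.9% higher and 22.8% lower). The calls in METTL7A-injected embryos were PHLDA2, NNAT, MEST and PLAGL1, and those in Control embryos were these and PEG10, IGF2R and GRB10. Without NNAT, whose passing of the filter is tied to its 8-cell level, 1 rose and 2 fell of 8 in METTL7A-injected embryos and 2 rose and 4 fell of 8 in Control embryos. With all 9, leaving out 1 library gave 2 to 6 calls in METTL7A-injected and 4 to 8 in Control embryos. The 2 came without METTL7A 2-cell replicate 2, the 6 without either Control 8-cell library, the 4 without either Control 2-cell library and the 8, IGF2 included, without either METTL7A 8-cell library. By level alone, 8-cell and 2-cell libraries did not overlap for 3 genes that were higher (PEG10, PHLDA2 and NNAT) and 3 that were lower (MEST, PLAGL1 and GRB10) in METTL7A-injected embryos, where the shares of all genes were 38.5% and 37.1%. In Control embryos these numbered 3 and 4, IGF2R being the addition, where the shares were 40.8% and 38.1%. The median log2 fold change of the 9 was 0.03 in METTL7A-injected embryos and -0.10 in Control embryos, beside 0.04 and 0.18 over all genes tested. These medians include NNAT, whose fold changes of 6.04 and 7.96 rest on 0 counts at the 2-cell stage. They are therefore not independent of the filter, and nearness to the values over all genes is not a result. No difference between the stage effects in METTL7A-injected and Control embryos passed by edgeR (0 of 9, beside 0.0124% of all genes). NNAT, at 0 counts in all 2-cell libraries, gave no usable test of it, and 0 of the other 8 passed. At an unadjusted p under 0.05 there were 2 of the 9, and DESeq2 called 1. A call in Control embryos alone is thus not shown to differ from METTL7A-injected embryos.

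Between treatments, 0 of 9 passed at the 2-cell stage by edgeR, beside 0.0124% of all genes. NNAT, at 0 counts in all 2-cell libraries, could not pass there, and 0 of the other 8 passed. Only PLAGL1 was at an unadjusted p under 0.05 there (0.0211), and DESeq2 called 0. PLAGL1 passed when only the 4 libraries of that stage were fitted (-0.80, adjusted p = 0.0405). In 2-cell libraries 5 of the 9 (PEG3, PEG10, PLAGL1, GRB10 and PHLDA2) were lower in METTL7A-injected embryos with no overlap between groups and 0 were higher, where 30.5% of all genes were lower and 26.9% were higher without overlap. At the 8-cell stage MEST, PLAGL1 and PHLDA2 were higher and NNAT lower without overlap, where the shares of all genes were 28.1% and 22.4%. The median log2 fold change of the 9 was -0.47 at the 2-cell stage and 0.22 at the 8-cell stage, beside 0 and 0.144 over all genes tested. The 2-cell median includes a value of 0 for NNAT that its lack of counts fixed in advance. The comparisons share libraries: each stage effect and each treatment effect uses groups that another one uses too.

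**Figure D5:**
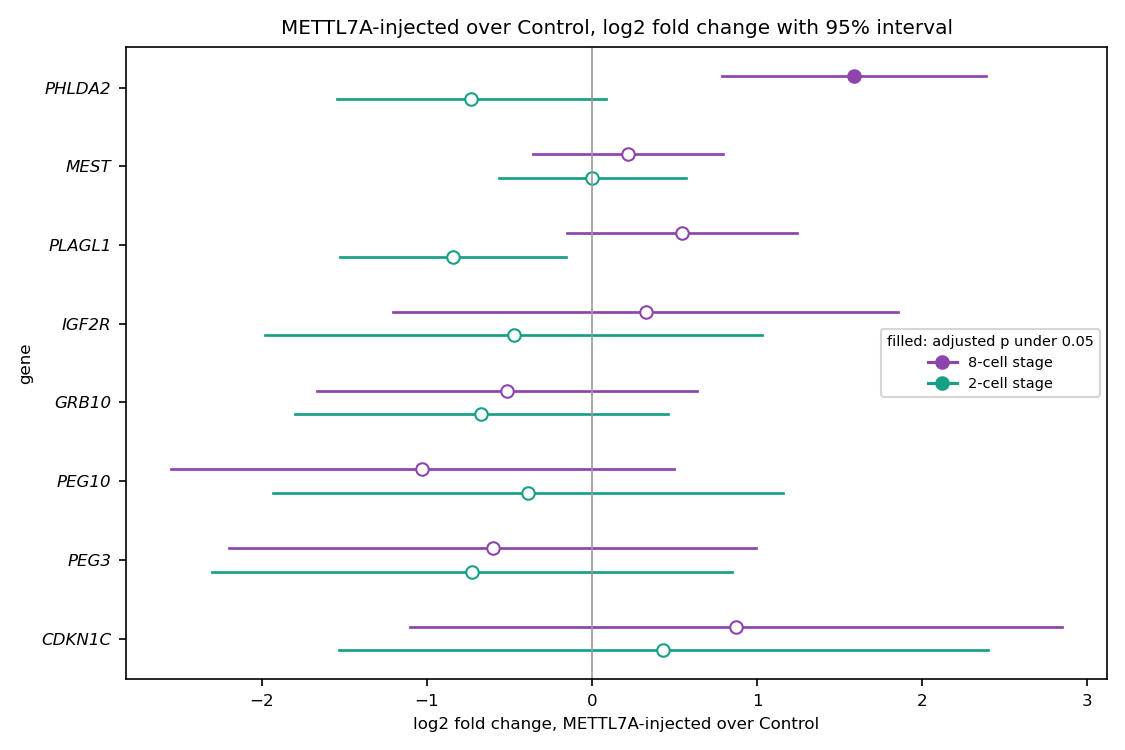
Log2 fold change of METTL7A-injected over Control embryos with 95% intervals for 8 imprinted genes, the 8-cell stage above the 2-cell stage. Filled points have an adjusted p under 0.05. Only PHLDA2 at the 8-cell stage (1.59) is filled, and PLAGL1 lies at 0.54 and -0.84.

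Of 47 other imprinted genes listed, 43 were in the table and 28 were tested. Between the stages 8 rose and 6 fell in METTL7A-injected embryos, and 11 rose and 6 fell in Control embryos. Those called made up 50% and 60.7% of the 28, beside 40.2% and 52.7% of all genes tested. IMPACT, a regulator of the kinase GCN2 that is imprinted in the mouse, rose with log2 fold changes of 3.41 (adjusted p = 0.000263) and 2.18 (adjusted p = 0.00153) in METTL7A-injected and Control embryos. It was also higher in METTL7A-injected than in Control 8-cell embryos (means 406.8 and 121.2 CPM; log2 fold change 1.75, adjusted p = 0.0373), a call that ended without Control 8-cell replicate 1 (1.62, adjusted p = 0.0897). GNAS, which encodes the stimulatory G protein subunit, rose by 3.01 and 5.08, and SNRPN, a spliceosomal protein gene of the Prader-Willi region, by 4.03 and 5.58, in METTL7A-injected and Control embryos. NDN and MKRN3 of the same region rose as well (3.22 and 3.99 for NDN, 4.12 and 3.82 for MKRN3), while the phospholipid flippase gene ATP10A fell (-1.77 and -2.89). GNAS stood at 418.6 CPM and SNRPN at 74.9 CPM in Control 8-cell replicate 1, against 79.3 and 10.7 CPM in replicate 2, and without replicate 1 their stage effects in Control embryos were 3.41 and 3.57. DCN, the proteoglycan decorin, which is imprinted in the mouse placenta and is also among the somatic markers here, had means of 12.3 and 48.9 CPM in METTL7A and Control 8-cell embryos and passed the stage test in both. MKRN3 had 3 to 9 counts per 2-cell library and DCN at most 1. Both passed the low-count filter only through 8-cell libraries, where they were high. Their stage calls, and the counts of genes that rose, are therefore not independent of that filter. H19 and DLK1 had 0 counts in every library. Between treatments 1 was higher (IMPACT) and 3 were lower (SGCE and, named after their values were seen, HM13 and NAP1L5) at the 8-cell stage, and only SGCE passed without Control 8-cell replicate 1. NAP1L5 had 177 and 39 counts in Control 8-cell libraries and at most 4 in any other. It passed the low-count filter only through that group, so its call is not independent of the filter. In 2-cell embryos 0 of the 28 passed by edgeR or by DESeq2, with 1 at an unadjusted p under 0.05.

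Genes that keep imprints through cleavage were described from a list of 30, of which 28 were tested. The list also holds DNMT3 and TET enzymes, which lay down or oxidise DNA methylation, so its counts mix unlike roles. Between the stages 10 rose and 9 fell in METTL7A-injected embryos, and 6 rose and 13 fell in Control embryos. Those called made up 67.9% of the 28 in both treatments, beside 40.2% and 52.7% of all genes, while by edgeR 0 passed between treatments at either stage. At an unadjusted p under 0.05 these numbered 6 at the 2-cell and 8 at the 8-cell stage, and DESeq2 called 2 lower at the 2-cell and 5 higher at the 8-cell stage. ZNF445, a zinc finger protein that holds methylation at imprinted loci, fell, with log2 fold changes of -2.56 and -3.21 in METTL7A-injected and Control embryos (adjusted p = 0.000793 and 0.000279). UHRF1, which brings DNMT1 to replicating DNA, fell as well (-3.06 and -4.23), and the maternal-effect genes NLRP2, NLRP5, TLE6 and PADI6 fell in both treatments. TET1, an enzyme that oxidises methylcytosine, rose by 7.88 and 6.29, and ARID4B by 2.82 and 2.15. ZFP57, which shares this role with ZNF445 and was named after its values were seen, had means of 7.26 and 4.97 CPM in METTL7A and Control 8-cell embryos against 0.0948 and 0.127 CPM in METTL7A and Control 2-cell embryos. The medians of the 28 were -0.55 at the 2-cell and 0.41 at the 8-cell stage for METTL7A against Control, beside 0 and 0.144 over all genes.

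In the insulin-like growth factor pathway 26 of 31 listed genes were tested. Between the stages 3 rose and 7 fell in METTL7A-injected embryos, and 10 rose and 9 fell in Control embryos. Those called made up 38.5% and 73.1% of the 26, beside 40.2% and 52.7% of all genes. IGFBP3, a binding protein of the IGFs, fell, with log2 fold changes of -3.15 and -3.05 in METTL7A-injected and Control embryos, as did the adaptor SHC1 (adjusted p = 0.000231 and 0.000106). IGF2BP1, which binds IGF2 mRNA, rose by 6.93 and 4.80. At the 8-cell stage PIK3CA, a catalytic subunit of PI3 kinase, was higher in METTL7A-injected embryos (log2 fold change 1.24, adjusted p = 0.0378), and without Control 8-cell replicate 1 it did not pass (1.13, adjusted p = 0.0518). IGFBP7, IGFBP5 and STC1 were lower, at means of 0.689, 2.53 and 7.10 CPM in METTL7A-injected and 513.3, 237.4 and 175.6 CPM in Control embryos (adjusted p = 0.0131, 0.0072 and 0.0072). IGFBP7 stood at 937.1 CPM in Control 8-cell replicate 1 and 89.5 CPM in replicate 2, and without replicate 1 all 3 still passed (adjusted p = 0.000238 for IGFBP7 and IGFBP5 and 0.00183 for STC1). In 2-cell embryos 0 of the 26 passed between treatments by edgeR, with 4 at an unadjusted p under 0.05 and 1 called by DESeq2. STC1, which encodes stanniocalcin, had a treatment effect that differed between the stages (log2 difference -8.00, adjusted p = 0.0155; -7.56 and 0.00763 without Control 8-cell replicate 1). By edgeR it was the 1 IGF pathway gene called for that difference and 1 of 2 in the whole table. In the list 7 were called with DESeq2 and 3 without Control 8-cell replicate 1, and over all genes there were 917 with DESeq2 and 0 to 4571 with a library left out (4571 without Control 8-cell replicate 2).

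The genes most like a member across the 8 libraries were sought for the 5 members with a mean of at least 10 CPM, by Pearson correlation of log2 CPM. The points share stage, treatment and library, so the values describe these libraries only. The nearest to PHLDA2 was CBLN1 (r = 0.998), and the nearest to MEST were ZNF419 (r = 0.999) and ZAR1 (r = 0.998), of which ZAR1 is an oocyte gene of early cleavage. For PLAGL1 they were SMG5 (r = 0.999), MED16 (r = 0.996) and TBC1D2B (r = 0.995). For IGF2R they were ATP13A3 (r = 0.990), CYFIP1 (r = 0.983) and NFKB1 (r = 0.982), and for GRB10 they were RTTN (r = 0.984), ZNF341 (r = 0.982) and GAS6 (r = 0.975). The other genes nearest to PHLDA2 and MEST were loci known by number alone, LOC112442369 and LOC101902123 (both r = 0.994) for PHLDA2 and LOC104975928 (r = 0.997) for MEST.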

How the data were processed

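Read counts per gene, as deposited by the authors, are whole numbers that were not normalized. Per the submitters' processing notes, Trim Galore 0.6.10, FastQC, STAR 2.7.11b, Subread 2.0.6 and DESeq2 1.44.0 were used. The genome build and annotation, not given in the sources used here, are unknown, so no coordinates are reported. An entry without a gene name took 0.184% to 0.95% of each library and was left out. The whole table was fitted in R 4.3.3 with edgeR 4.0.16, using 1 coefficient per group over 8 libraries, TMM factors, filterByExpr (minimum count 10, minimum total 15) and the robust 2-sided quasi-likelihood test. Genes near absent at the 2-cell stage could pass the filter through the 8-cell libraries alone. Counts of genes that rose between stages, in the lists and over all genes, are therefore not independent of it. P-values were adjusted by Benjamini and Hochberg across the 16149 genes of each comparison, and the threshold was 0.05. Fold changes are log2, METTL7A-injected over Control or 8-cell over 2-cell, with 95% intervals from the same fit. The fit was also run on simulated counts, whose outcome is not reported here and lends the p-values no support. Alternatives were other scalings, no filter, DESeq2 1.42.0, fits of fewer groups, a replicate block, leaving out each library and summing the Control 2-cell pair. Nothing says that replicates came from separate cultures, so the p-values reflect sample-to-sample spread alone, possibly technical. Members, lists and tests were chosen with earlier results of these data known. All 10 members were described. From each further list, up to 8 genes past the threshold could be named, in order of their smallest adjusted p. For members of at least 10 mean CPM, the 3 genes of highest correlation of log2 CPM (prior count 3) were named. Gene order came from the RefSeq table of assembly UOA_Brahman_1, which held all 10 symbols.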

Additional observations from a re-analysis of the deposited data

How the results depend on the processing

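The stage effects of MEST and PHLDA2 in both treatments and of PLAGL1 in Control embryos passed in all 16 alternatives run. Of the members' fold changes recomputed, 582 kept their direction and side of the threshold, 19 gained a call, 34 lost one and 44 turned round. The number of members called between treatments at the 8-cell stage (1) became 0 with library sizes without METTL7A and LOC781439, with only the 8-cell groups and with the Control 2-cell pair summed, and 2 with no filter. At the 2-cell stage (0) it became 1 with only the groups compared. Between stages it became 4 in Control embryos with that pair summed (7) and 7 in METTL7A-injected embryos with no filter (4). For the difference of effects (0) it became 1 with no filter and 1 with DESeq2. Smaller shifts are not counted here. In Control embryos IGF2R and GRB10 lost their stage calls with RLE scaling, IGF2R and PEG10 with only the groups compared, and IGF2 gained one with no filter. In METTL7A-injected embryos PEG10 gained a stage call with DESeq2 and GRB10 with library sizes without METTL7A and LOC781439. With only the groups compared both gained one there and NNAT lost its call. Leaving out each library in turn gave 0 to 3 calls at the 8-cell stage, 2 to 6 between stages in METTL7A-injected embryos, 4 to 8 in Control embryos, 0 to 2 for the difference and 0 at the 2-cell stage. The extremes at the 8-cell stage were 3 without Control 8-cell replicate 2, and 854 genes called overall became 7126 there and 2 without either METTL7A 8-cell library. Over all genes, calls at the 8-cell stage were 2374 with DESeq2, 2767 with no filter and 283 with only its groups. At the 2-cell stage they were 158, 100 and 1005 against 2 (2 to 50 with a library left out). For the difference they were 917 with DESeq2, 1354 with no filter and 24 with the replicate block, against 2 (0 to 4571). Between stages they were 5127 to 10759 in Control embryos, 5404 with the pair summed, and 3276 to 9149 in METTL7A-injected embryos. Library sizes without METTL7A and LOC781439 moved the median of all genes at the 8-cell stage to -0.0904, against 0.144, and PHLDA2 to 1.35 (adjusted p = 0.0513). Same-numbered libraries did not deviate together (correlations -0.0275 to 0.0586). With 2 libraries a group this cannot exclude a small shared batch effect, so whether the numbers pair samples is unknown. With the replicate block, 0, 1, 7, 4 and 0 members were called between treatments in 2-cell and in 8-cell embryos, between stages in Control and in METTL7A-injected embryos and for the difference. With all libraries kept, the signs that turned belonged to values of at most 0.22 in size. The further gene lists without Control 8-cell replicate 1 were added after seeing the data. MEST was -0.0065, -0.0092 and -0.081 at the 2-cell stage (library sizes without METTL7A and LOC781439, no filter, pair summed) and -0.020 at the 8-cell stage (those library sizes). PEG3 between stages was 0.043 and 0.044 in Control embryos (RLE, DESeq2), and -0.11, -0.26, -0.13, -0.0027 and -0.10 in METTL7A-injected embryos (upper quartile, those library sizes, no filter, only the groups, pair summed). The differences were -0.13 for PEG3, -0.014 for MEST and -0.063 for GRB10 with those library sizes. Leaving out a library gave, at the 2-cell stage, -1.66 to 0.20 for IGF2R, -0.16 to 0.87 for CDKN1C and -0.026 to 0.039 for MEST. At the 8-cell stage it gave -0.46 to 1.15 for IGF2R, -1.38 to 0.035 for GRB10, -0.62 to 2.42 for CDKN1C, -1.29 to 0.84 for PEG3 and -1.76 to 0.67 for PEG10. Between stages it gave -1.56 to 0.56 for PEG3 and -1.20 to 1.08 for CDKN1C in Control embryos, and -0.39 to 0.41 and -0.73 to 1.48 in METTL7A-injected embryos. For the difference it gave -0.56 to 1.56 for PEG3, -0.75 to 0.68 for GRB10, -0.019 to 2.00 for IGF2R, -1.09 to 1.99 for CDKN1C and -1.37 to 1.06 for PEG10. RLE scaling moved 4 levels by more than 1 SD: in Control 2-cell embryos MEST was 147.4, PLAGL1 67.7 and GRB10 26.0 CPM, and PLAGL1 was 10.9 CPM in Control 8-cell embryos. Their causes were not tested. With 2 libraries a group, the lone library left by an omission is assumed to vary like the others, and NNAT and IGF2 rest on under 60 counts in any library.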
